A study of Mus musculus with 33 samples.

Results

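The 9 genes described here encode the core enzymes and readers of DNA methylation: the methyltransferases Dnmt1, Dnmt3a and Dnmt3b, the maintenance factor Uhrf1, the oxidases Tet1, Tet2 and Tet3, the glycosylase Tdg and the methyl-CpG reader Mbd2. They were chosen by name, and 8 of the 9 had a row in a deposited table of counts for 17982 genes. Tdg had none there and appeared in 1 deposited result table only. The series held 33 mouse samples, of which 15 were RNA libraries in 5 groups of 3 and 18 were methylation libraries with their inputs. The count table covered 3 of the RNA groups. Induced osteoblasts (iOB) were Col2.3GFP fibroblasts from the tail tip that received a lentivirus with a transcription factor gene, which the labels do not name, for 24 hours, were split on day 3 and were kept in osteogenic medium from day 5. Calvarial-derived osteoblasts (calvarial-OB) are labelled as osteoblast differentiation, and their titles mark them as dataset 2, so what belongs to the dataset and what to the cells cannot be told apart. Fibroblasts were the Col2.3GFP tail-tip cells themselves. In Col2.3GFP mice a fragment of the type I collagen promoter drives green fluorescent protein in cells of the osteoblast lineage. A group sorted from iOB for that protein (iOB GFP+) entered through the authors' result table against fibroblasts. The labels give no age, sex or day of harvest and no group given virus or medium alone. They do not say whether the 3 libraries of a group came from separate cultures or animals, so p-values measure the spread between these libraries, which may be technical.

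Methylation of cytosine in CpG pairs is copied after replication by DNMT1, which UHRF1 brings to hemimethylated CpG sites, and new marks are placed by DNMT3A and DNMT3B. TET enzymes oxidise methylated cytosine, using iron and alpha-ketoglutarate, and TDG cuts out the oxidised bases so that base excision repair can put back an unmethylated cytosine. MBD2 binds methylated CpG and brings the NuRD complex, which holds histone deacetylases and nucleosome remodellers. In the bone lineage, DNA methylation of osteoblast genes changes as progenitors differentiate, and the amount of DNMT1 and UHRF1 RNA in a culture is known to follow the share of cells in S phase.

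Promoter sequences are shown for 3 members that changed in RNA. RefSeq promoter windows of 300 bases on GRCm38.p6, 250 before and 50 after an annotated start, were given for 8 of the 9 members, 13 windows in all, and Mbd2 had no entry. E2F factors drive many genes of DNA replication, and 4 exact words of their site (TTTCCCGC, TTTGGCGC, TTTCGCGC and TTTGCCGC) were searched on both strands, with CCAAT, the site of NF-Y, and with TTTGAA, a core of the cell cycle homology region. CCAAT matches on opposite strands can share bases with each other. An E2F word was in 2.26% of all 32851 windows, CCAAT in 37.4% and TTTGAA in 17.9%. Counted by gene, 2 of 8 members, Dnmt1 and Uhrf1, had an E2F word in at least 1 window, against 7 of 19 S phase genes (36.8%), 1 of 13 G2 and M phase genes (7.69%) and 2.6% of all 27025 genes. The window of Dnmt1 with the E2F words (promoter 3 of 3, chr9:20952574-20952873, minus strand) and that of Uhrf1 (promoter 2 of 2, chr17:56304063-56304362, plus strand) are printed because both genes fell in iOB. A window of Dnmt3a (promoter 1 of 3, chr12:3806730-3807029, plus strand) is printed because this gene rose in both osteoblast groups and its 3 windows had no match. The windows of Tet1 and Tet2 had no match either, and Tet3, which also fell in iOB, had no E2F word. Whether matches go with the direction of change was not tested. Capitals mark the E2F words and CCAAT, read on either strand.
Dnmt1 promoter 3: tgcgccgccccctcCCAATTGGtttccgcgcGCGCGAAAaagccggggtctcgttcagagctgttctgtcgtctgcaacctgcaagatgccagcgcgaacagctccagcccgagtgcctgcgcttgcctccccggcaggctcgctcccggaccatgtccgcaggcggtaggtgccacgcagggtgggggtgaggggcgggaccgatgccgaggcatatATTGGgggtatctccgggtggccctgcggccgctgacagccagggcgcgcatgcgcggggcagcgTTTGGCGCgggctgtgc
Uhrf1 promoter 2: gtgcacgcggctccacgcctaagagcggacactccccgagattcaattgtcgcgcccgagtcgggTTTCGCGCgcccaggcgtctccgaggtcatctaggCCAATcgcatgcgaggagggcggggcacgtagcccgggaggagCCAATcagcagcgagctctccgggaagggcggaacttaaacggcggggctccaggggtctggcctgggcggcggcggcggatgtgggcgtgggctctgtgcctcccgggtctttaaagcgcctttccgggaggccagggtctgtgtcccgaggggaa
Dnmt3a promoter 1: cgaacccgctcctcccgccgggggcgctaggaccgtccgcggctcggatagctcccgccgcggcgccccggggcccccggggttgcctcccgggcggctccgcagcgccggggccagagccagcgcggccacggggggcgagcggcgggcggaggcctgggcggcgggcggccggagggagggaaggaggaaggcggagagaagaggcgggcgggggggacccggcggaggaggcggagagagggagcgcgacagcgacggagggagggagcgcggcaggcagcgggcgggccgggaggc
The Dnmt1 window held 33 CpG, 2 E2F words and 3 CCAAT matches. The Uhrf1 window held 33 CpG, 1 E2F word and 2 CCAAT matches. The Dnmt3a window held 46 CpG, against a median of 7 over all windows. A match is a description of these letters and shows no bound factor.

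The 9 libraries held 5646299 to 15023771 counts, and 13438 genes passed the filter on low counts, all 8 members among them. The precursor ribosomal RNA Rn45s took 2.27% to 10.9% of the counts of a library. Calvarial-OB replicate 1 stood apart from the other libraries of its group, with correlations of 0.970 and 0.967 across genes against 0.985 between those. All 10 osteoblast markers were higher in iOB and in calvarial-OB than in fibroblasts. All 13 macrophage markers were higher as well, at a summed 2310 to 3759 CPM (counts scaled to library size) in iOB and 3800 to 7043 CPM in calvarial-OB, against 42.5 to 84.9 CPM in fibroblasts, with none at 0 in any group. The 8 adipocyte markers summed to 285 to 341 CPM in iOB and 1122 to 1829 CPM in calvarial-OB, against 131 to 144 CPM in fibroblasts, where Adipoq, Cfd, Cidec and Lep were at 0. Sums over 16 G2 and M phase genes were 157 to 208 CPM in iOB and 396 to 686 CPM in calvarial-OB, against 635 to 974 CPM in fibroblasts. The part of these cell types and of cycling cells in the values below was not tested. In such bulk samples, fewer cells of a type and less RNA per cell cannot be told apart.

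In iOB against fibroblasts, Dnmt1, Uhrf1 and Tet3 fell and Dnmt3a and Mbd2 rose, while Dnmt3b, Tet1 and Tet2 did not pass the test. Thus 2 of 8 members were called higher and 3 lower, at an adjusted p below 0.05 in edgeR's quasi-likelihood test, against 22.7% and 20.6% of all genes tested and 43.3% in either direction. In calvarial-OB against fibroblasts, Dnmt3a, Tet1 and Mbd2 rose and Tet3 fell, so 3 were called higher and 1 lower, against 28.4% and 27.4% of all genes, 55.8% in all. In iOB against calvarial-OB, Dnmt1, Uhrf1 and Tet1 were lower and no member was higher, against 24.1% and 24.7% of all genes, 48.8% in all. The median log2 fold change over the 8 members was -0.18, 0.36 and -0.39 in these comparisons, beside -0.04, 0.02 and -0.03 over all genes. The groups did not overlap for 5, 3 and 4 of the 8 members, where 63.0%, 60.5% and 55.5% of all genes did not. With 8 genes, the 5, 4 and 3 called in all lie near the share of all genes called, so what follows concerns directions and sizes gene by gene. The comparisons share libraries and are not independent of each other.

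**Figure D1:**
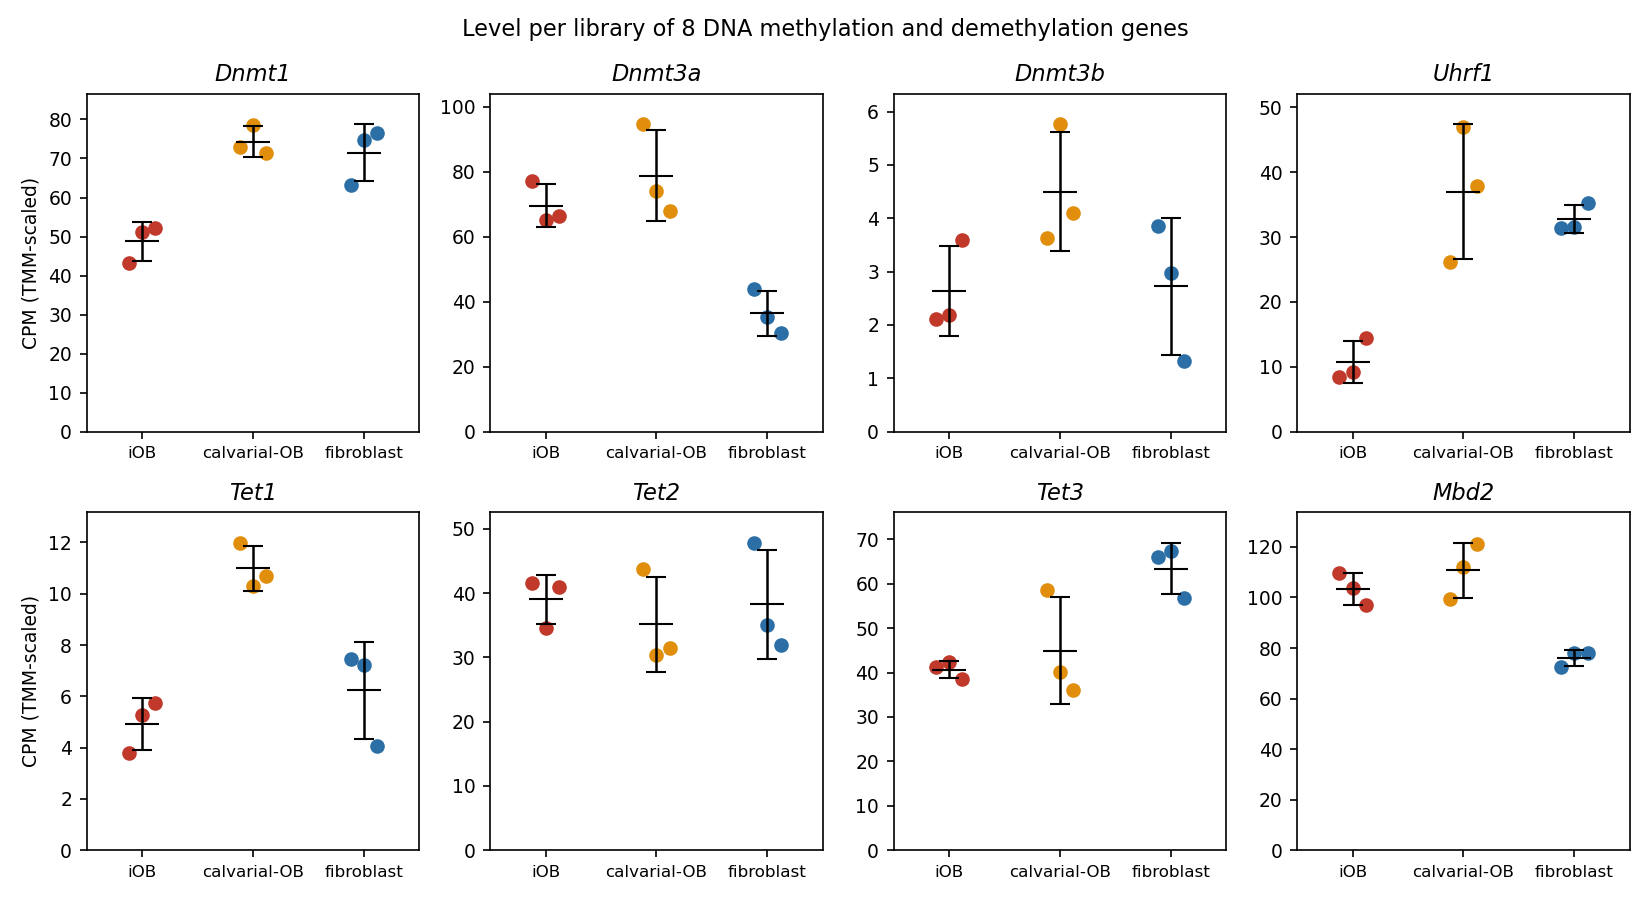
CPM on TMM-scaled library sizes of the 8 members with counts, 1 panel per gene with its own axis from 0; points are libraries and bars are means with SD (n = 3) for iOB, calvarial-OB and fibroblast. Uhrf1 averaged 10.7 CPM in iOB, against 32.8 CPM in fibroblasts, and Dnmt3a 69.5 CPM in iOB against 36.4 CPM in fibroblasts.

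In iOB against fibroblasts, Uhrf1 had the largest change of the 8 members. Uhrf1, the factor that reads hemimethylated CpG and recruits DNMT1, had 8.47, 9.17 and 14.4 CPM in iOB, 26.2, 46.9 and 37.8 CPM in calvarial-OB, and 31.5, 31.6 and 35.3 CPM in fibroblasts. Every iOB library lay below every library of the other groups, and the calvarial-OB libraries lay on both sides of the fibroblasts. Uhrf1 fell by 1.63 ± 0.23 on the log2 scale (SE) in iOB against fibroblasts, 3.10-fold, with an edgeR adjusted p of 0.000147. Against calvarial-OB it fell by 1.80 ± 0.23, 3.49-fold, with an edgeR adjusted p of 6.71e-05. Calvarial-OB and fibroblasts did not differ by the test, with a log2 fold change of 0.17 ± 0.21, a 95% interval of -0.28 to 0.63 and an edgeR adjusted p of 0.506.

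Dnmt1, the methyltransferase that copies methylation to the new strand, had 43.1, 51.1 and 52.2 CPM in iOB, 73.0, 78.7 and 71.3 CPM in calvarial-OB, and 63.2, 74.8 and 76.6 CPM in fibroblasts. Here too all 3 iOB libraries were the lowest, and the other groups overlapped. Dnmt1 fell by 0.55 ± 0.11 in iOB against fibroblasts (edgeR adjusted p = 0.00216) and by 0.61 ± 0.11 against calvarial-OB (edgeR adjusted p = 0.00104). For calvarial-OB over fibroblasts the log2 fold change was 0.06 ± 0.11, with a 95% interval of -0.19 to 0.30 and an edgeR adjusted p of 0.700. Uhrf1 and Dnmt1 thus fell in the same comparisons, Uhrf1 with the larger fold change. Set against Dnmt1 in the same library, Uhrf1 had a log2 ratio of CPM of -2.20 ± 0.32 in iOB, -1.04 ± 0.38 in calvarial-OB and -1.12 ± 0.12 in fibroblasts (SD, n = 3 each). The difference of -1.09 between iOB and fibroblasts and that of -1.16 between iOB and calvarial-OB each had p = 0.1 in a two-sided exact permutation test, the smallest p that 3 libraries against 3 allow, and 0.191 after adjustment over 21 comparisons of 7 ratios.

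In iOB, a fall of both genes went with a fall of replication genes. The list of 22 S phase genes leaves out the members. Of these, 12 were lower and 1 higher in iOB than in fibroblasts, beside 20.6% and 22.7% of all genes. The median log2 fold change of the list was -0.66. The higher one was Rrm1, a subunit of ribonucleotide reductase, at 0.67, named after its value was seen. Mcm6 and Mcm7, subunits of the replicative helicase, fell by 1.13 ± 0.19 and 1.14 ± 0.16 (edgeR adjusted p = 0.000548 and 0.000127). Tk1, the S phase thymidine kinase, averaged 6.54 ± 1.47 CPM in iOB, 23.8 ± 6.0 CPM in calvarial-OB and 16.8 ± 3.8 CPM in fibroblasts. Relative to the mean of the S phase list in the same library, Dnmt1 had log2 ratios of 1.90 ± 0.08 in iOB, 1.81 ± 0.31 in calvarial-OB and 1.81 ± 0.06 in fibroblasts. The differences of 0.09 for iOB over fibroblasts, -0.00 for calvarial-OB over fibroblasts and 0.09 for iOB over calvarial-OB had exact permutation p of 0.3, 1 and 0.6. Uhrf1 had log2 ratios to that list of -0.31 ± 0.39 in iOB, 0.77 ± 0.12 in calvarial-OB and 0.69 ± 0.12 in fibroblasts. The iOB mean lay apart from both others, by -1.07 for iOB over calvarial-OB, and each difference had an exact permutation p of 0.1, the smallest possible. For Dnmt1 the libraries of the 3 groups overlapped in this ratio, and for Uhrf1 every iOB library lay below every other library. All 16 G2 and M phase genes were lower in iOB than in fibroblasts, with a median log2 fold change of -2.20. Against calvarial-OB, 17 of 22 S phase genes were lower and 1 higher in iOB, beside 24.1% and 24.7% of all genes. All 16 G2 and M phase genes were lower there. In calvarial-OB against fibroblasts, neither Dnmt1 nor Uhrf1 was called. There 3 S phase genes were lower and 3 higher, and 6 of 16 G2 and M phase genes were lower and none higher. Of all genes, 27.4% were lower and 28.4% higher. Mki67, the proliferation marker Ki-67, averaged 43.3 ± 9.1 CPM in iOB, 138 ± 27 CPM in calvarial-OB and 200 ± 38 CPM in fibroblasts.

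**Figure D2:**
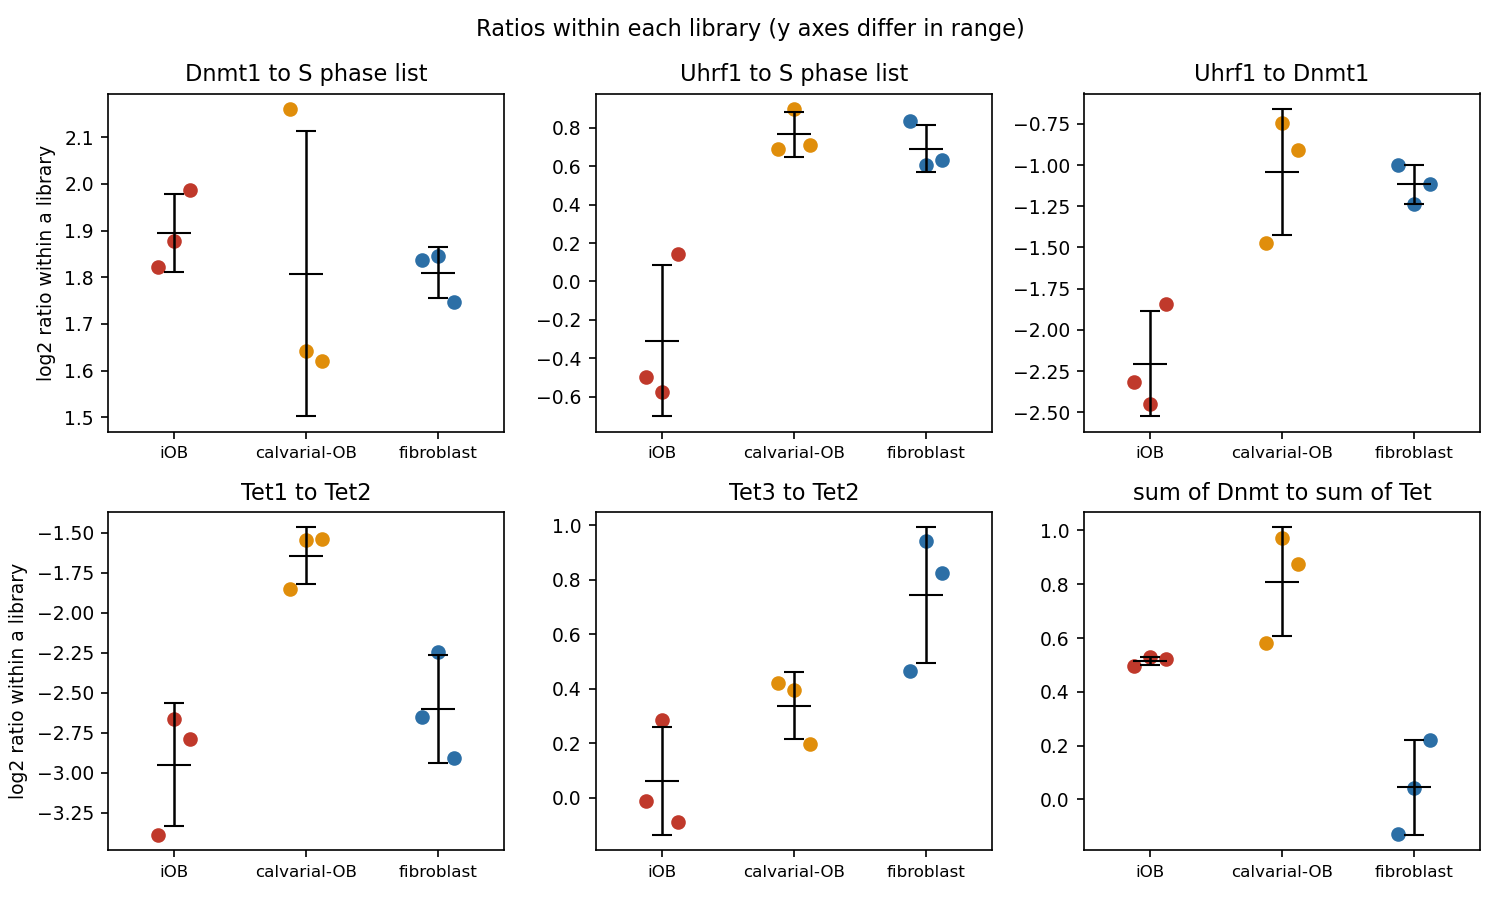
Log2 ratios of CPM within a library, 1 panel per ratio; points are the 3 libraries of iOB, calvarial-OB and fibroblast, bars are means with SD, and the vertical axes differ in range. Uhrf1 to Dnmt1 averaged -2.20 in iOB and -1.12 in fibroblasts, while Dnmt1 to the S phase list averaged 1.90 in iOB and 1.81 in fibroblasts.

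The de novo enzyme Dnmt3a went the other way. Dnmt3a had 77.1, 65.3 and 66.3 CPM in iOB, 94.6, 73.9 and 67.9 CPM in calvarial-OB, and 43.9, 35.1 and 30.3 CPM in fibroblasts. Every library of both osteoblast groups lay above every fibroblast library, and the osteoblast groups overlapped with each other. Dnmt3a rose by 0.93 ± 0.16 in iOB against fibroblasts, 1.91-fold (edgeR adjusted p = 0.000584), and by 1.11 ± 0.16 in calvarial-OB against fibroblasts, 2.16-fold (edgeR adjusted p = 9.74e-05). Between iOB and calvarial-OB the log2 fold change was -0.18 ± 0.16, with a 95% interval of -0.52 to 0.16 and an edgeR adjusted p of 0.370. The annotation places the noncoding genes Dnmt3aos and Gm31623 over Dnmt3a, and the strand setting of the counting is not given in the sources used here, so their reads cannot be told apart from those of Dnmt3a. The same limit holds for Tet1 with Gm51805, Tet3 with B230319C09Rik and Mbd2 with Gm31671.

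Dnmt3b, the other de novo enzyme, was scarce, with 14 to 63 counts in a library. It had 2.12, 2.18 and 3.60 CPM in iOB, 3.63, 5.76 and 4.10 CPM in calvarial-OB, and 3.86, 2.97 and 1.33 CPM in fibroblasts. The iOB libraries lay within the fibroblast range, and all calvarial-OB libraries lay above the iOB libraries, though the nearest pair was 3.63 against 3.60 CPM. No comparison passed the test: the log2 fold change was -0.05 ± 0.40 for iOB over fibroblasts (edgeR adjusted p = 0.940), 0.74 ± 0.37 for calvarial-OB over fibroblasts (0.107) and -0.78 ± 0.38 for iOB over calvarial-OB (0.112). Their 95% intervals ran over -0.92 to 0.83, -0.06 to 1.53 and -1.62 to 0.05. Without fibroblast replicate 1, the highest of its group, calvarial-OB over fibroblasts came to 1.12 with an edgeR adjusted p of 0.0373.

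The 3 oxidases each took a different course. Tet1, the TET enzyme with a CXXC domain that binds CpG-rich DNA, had 3.78, 5.28 and 5.73 CPM in iOB, 11.99, 10.3 and 10.7 CPM in calvarial-OB, and 7.44, 7.22 and 4.07 CPM in fibroblasts. All calvarial-OB libraries lay above all others, while iOB and fibroblasts overlapped. Tet1 rose by 0.83 ± 0.24 in calvarial-OB against fibroblasts (edgeR adjusted p = 0.0106) and was lower by 1.15 ± 0.25 in iOB than in calvarial-OB (edgeR adjusted p = 0.00261). For iOB over fibroblasts its log2 fold change was -0.32 ± 0.26, with a 95% interval of -0.89 to 0.25 and an edgeR adjusted p of 0.343.

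Tet3, the TET enzyme known for oxidising the paternal genome of the zygote, had 41.3, 42.3 and 38.4 CPM in iOB, 58.6, 40.1 and 36.1 CPM in calvarial-OB, and 66.1, 67.4 and 56.7 CPM in fibroblasts. All iOB libraries lay below all fibroblast libraries, and calvarial-OB replicate 1 lay above the lowest fibroblast library. Tet3 fell by 0.64 ± 0.16 in iOB against fibroblasts (edgeR adjusted p = 0.00772). It fell by 0.50 ± 0.16 in calvarial-OB against fibroblasts with an edgeR adjusted p of 0.0190, a call that was lost without fibroblast replicate 1 (0.0546), fibroblast replicate 2 (0.0820), calvarial-OB replicate 2 (0.0954) or calvarial-OB replicate 3 (0.0973). Between iOB and calvarial-OB the log2 fold change was -0.14 ± 0.16 (edgeR adjusted p = 0.525).

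Tet2, which lacks a CXXC domain of its own, had 41.6, 34.6 and 40.9 CPM in iOB, 43.7, 30.4 and 31.4 CPM in calvarial-OB, and 47.9, 35.0 and 31.9 CPM in fibroblasts. The 3 groups overlapped throughout. Its log2 fold changes were 0.03 ± 0.18 for iOB over fibroblasts, -0.13 ± 0.18 for calvarial-OB over fibroblasts and 0.15 ± 0.18 for iOB over calvarial-OB, with edgeR adjusted p of 0.925, 0.573 and 0.516. The 95% intervals, -0.37 to 0.42, -0.51 to 0.26 and -0.24 to 0.54, hold no change above 0.54 in size.

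With Tet2 as the yardstick in each library, Tet1 had log2 ratios of -2.95 ± 0.39 in iOB, -1.64 ± 0.18 in calvarial-OB and -2.60 ± 0.34 in fibroblasts. Tet3 had 0.06 ± 0.20 in iOB, 0.34 ± 0.12 in calvarial-OB and 0.74 ± 0.25 in fibroblasts. The summed CPM of the 3 Dnmt genes over that of the 3 Tet genes had log2 ratios of 0.52 ± 0.02 in iOB, 0.81 ± 0.20 in calvarial-OB and 0.04 ± 0.18 in fibroblasts. This ratio is read between groups only, since reads per gene also depend on transcript length. It was higher by 0.47 in iOB and by 0.76 in calvarial-OB than in fibroblasts, with no overlap of libraries, and each difference had an exact permutation p of 0.1, the smallest possible (0.191 adjusted). Among the genes summed, Dnmt3a was called higher and Tet3 lower in both osteoblast groups, Tet3 in calvarial-OB with the limit given above, while Dnmt1 was called lower in iOB and Tet1 higher in calvarial-OB.

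Mbd2, the methyl-CpG reader that recruits NuRD, had 109, 104 and 96.9 CPM in iOB, 99.3, 112 and 121 CPM in calvarial-OB, and 72.4, 78.0 and 78.0 CPM in fibroblasts. Every osteoblast library lay above every fibroblast library. Mbd2 rose by 0.44 ± 0.10 in iOB (edgeR adjusted p = 0.00480) and by 0.54 ± 0.10 in calvarial-OB (edgeR adjusted p = 0.000828), each against fibroblasts. Between iOB and calvarial-OB the log2 fold change was -0.10 ± 0.10, with a 95% interval of -0.33 to 0.12 and an edgeR adjusted p of 0.444.

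**Figure D3:**
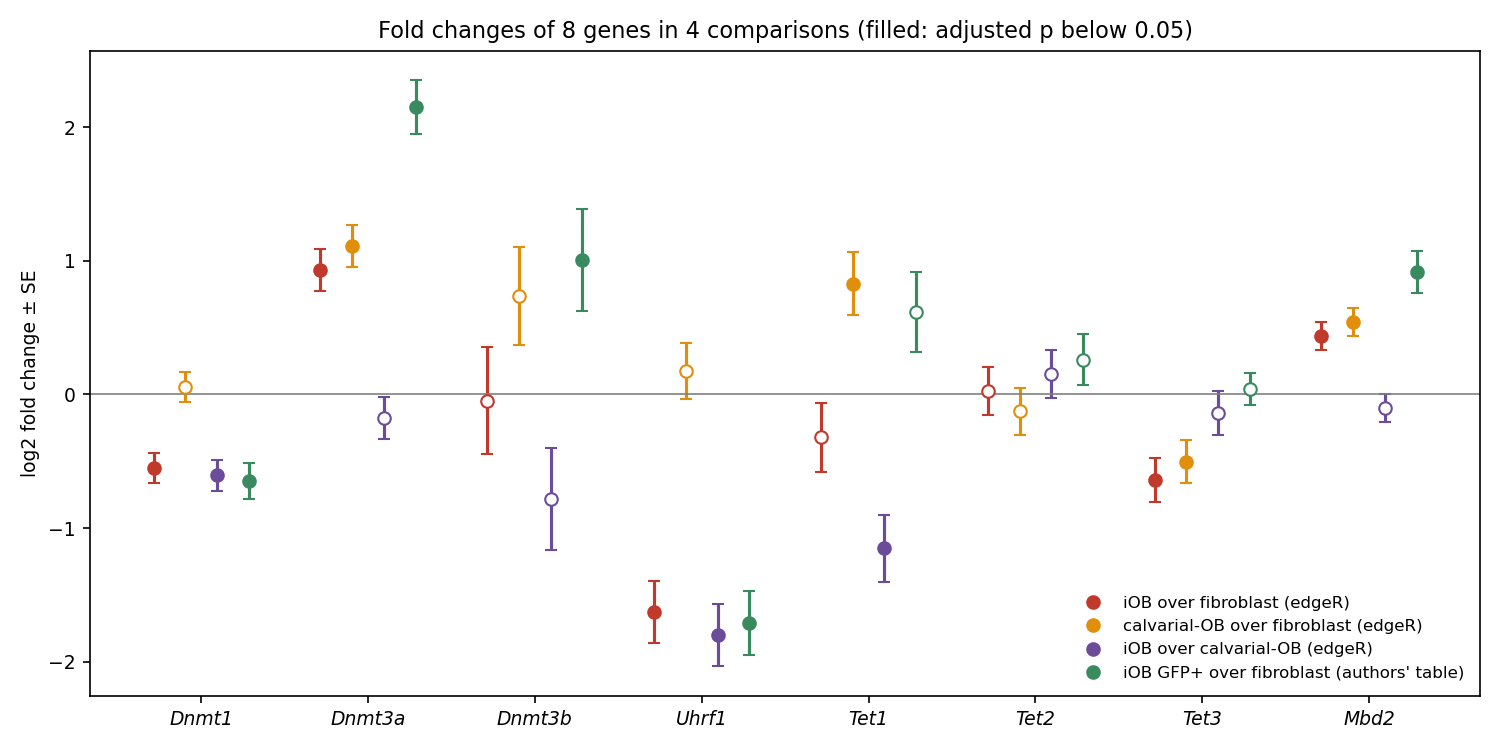
Log2 fold changes (vertical axis, bars are SE) of the 8 members in the 3 comparisons by edgeR and, from the authors' deposited table, for iOB GFP+ over fibroblast; filled points passed an adjusted p of 0.05. Dnmt3a and Mbd2 lie above 0 in both osteoblast groups against fibroblasts, and Uhrf1 lies at -1.63 in iOB over fibroblast and 0.17 in calvarial-OB over fibroblast.

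In the authors' deposited table for iOB over fibroblasts the same 8 genes had moderated log2 fold changes of the same direction as above, 2 called higher and 3 lower, where 19.9% and 15.0% of all genes with an adjusted p were (34.9% in all). In the authors' deposited table for iOB GFP+ over fibroblasts, 3 of 9 members were called higher and 2 lower, against 23.7% and 21.7% of all genes, 45.5% in all. Uhrf1 fell by 1.71 ± 0.24 and Dnmt1 by 0.65 ± 0.14 in the authors' deposited table for iOB GFP+ (SE, adjusted p = 1.36e-11 and 1.12e-05). Beside them in the authors' deposited table for iOB GFP+, 16 of 22 S phase genes were lower and 1 higher (median -0.97), and 16 of 16 G2 and M phase genes were lower (median -2.50); their part in the values of the pair was not tested. Dnmt3a rose by 2.15 ± 0.20 in the authors' deposited table for iOB GFP+ (adjusted p = 3.61e-25), beside 0.94 ± 0.18 in the authors' deposited table for unsorted iOB (adjusted p = 1.28e-06). Dnmt3b rose by 1.01 ± 0.38 (adjusted p = 0.0210) and Mbd2 by 0.92 ± 0.16 (adjusted p = 3.28e-08) in the authors' deposited table for iOB GFP+, beside -0.02 ± 0.41 and 0.46 ± 0.12 in their table for iOB. For Tet3 the authors' deposited table for iOB GFP+ gave 0.04 ± 0.12 (adjusted p = 0.814), beside -0.61 ± 0.19 in their table for iOB (adjusted p = 0.00448). Tet1 and Tet2 did not pass in the authors' deposited table for iOB GFP+, at 0.62 ± 0.30 (adjusted p = 0.0786) and 0.26 ± 0.19 (adjusted p = 0.272). Whether sorted and unsorted iOB differ was not tested, since the sorted libraries came only as a result table and both tables are against fibroblasts. All 13 macrophage markers had positive log2 fold changes in the authors' deposited table for iOB GFP+ too, 2.18 to 4.84, but 12 of them carried no p-value. Of all 17737 genes there, 377 carried none. DESeq2 can leave out a p-value where it flags an outlying count. Without values per library, whether all 3 sorted libraries carry these markers cannot be told. Tdg, the glycosylase, appeared in the authors' deposited table for iOB GFP+ alone, with a base mean of 0.474 normalized counts and a log2 fold change of 0.86 ± 1.00 (adjusted p = 0.517). That is too few reads for a level, and the copies Tdg-ps and Tdg-ps2 were in no table.

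Many of the genes listed as partners of the maintenance pair were lower in iOB as well. Of 13 such genes, 8 were lower and none higher in iOB than in fibroblasts, with a median log2 fold change of -0.57. Over all genes tested, 20.6% were lower and 22.7% higher. The list also holds Dnmt3l and Trdmt1, which are not partners of the pair in the narrow sense. Dnmt3l, among the lower ones, averaged 0.23 CPM in iOB and 1.22 CPM in fibroblasts. Hells, the remodeller that helps DNMT1 reach nucleosomal DNA, fell by 1.21 ± 0.25 to 7.57 ± 1.24 CPM in iOB, against 17.7 ± 2.0 CPM in fibroblasts (edgeR adjusted p = 0.00187). Uhrf2, a relative of Uhrf1, fell by 0.57 ± 0.11, Ehmt1, a histone lysine methyltransferase, by 0.56 ± 0.09, and Trim28, a corepressor that keeps methylation at imprinted loci, by 0.67 ± 0.11. In calvarial-OB against fibroblasts, 2 of the 13 were higher and 3 lower, with a median of -0.19, beside 28.4% and 27.4% of all genes. The lower ones were Uhrf2, Ehmt1 and Trim28, at -0.51 ± 0.11, -0.30 ± 0.09 and -0.33 ± 0.11, so their fall was not particular to iOB. The higher ones were Trdmt1 and Pcna, the replication clamp. Pcna averaged 123 ± 17 CPM in calvarial-OB, 57.9 ± 4.5 CPM in fibroblasts and 60.0 ± 4.2 CPM in iOB. Against calvarial-OB, 8 of the 13 were lower in iOB and none higher, with a median of -0.69, beside 24.1% and 24.7% of all genes. Uhrf2 did not differ by the test there (-0.06 ± 0.11, edgeR adjusted p = 0.686). In the authors' deposited table for iOB GFP+ over fibroblasts, 6 of the 13 were lower and none higher, beside 21.7% and 23.7% of all genes. Hells was at -1.88 ± 0.24 there (adjusted p = 1.85e-14).

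The other genes listed as methyl-CpG readers were called in both directions. Whether each of these 9 proteins binds methylated CpG was not tested. Of the 9 genes, none was higher and 4 were lower in iOB than in fibroblasts. In calvarial-OB, 1 (Mbd3, at 0.50, named after its value was seen) was higher and 4 lower. Over all genes tested, 20.6% were lower and 22.7% higher in iOB, and 27.4% and 28.4% in calvarial-OB. In either direction, 43.3% and 55.8% were called in these comparisons. Zbtb38, a zinc finger reader, averaged 37.0 ± 2.1 CPM in iOB, 16.8 ± 1.9 CPM in calvarial-OB and 54.4 ± 2.3 CPM in fibroblasts. Mbd5, another protein of the methyl-CpG-binding family, averaged 26.3 ± 1.3 CPM in iOB, 13.1 ± 1.8 CPM in calvarial-OB and 38.1 ± 3.8 CPM in fibroblasts. In the authors' deposited table for iOB GFP+ over fibroblasts, 2 of these 9 genes were higher and 2 lower, beside 23.7% and 21.7% of all genes. The higher ones were Mbd6 at 1.09 ± 0.10 (adjusted p = 4.44e-24) and Mbd3 at 0.25 ± 0.10 (adjusted p = 0.0275), named after their values were seen. Of 12 NuRD subunits, 7 were lower and none higher in iOB against fibroblasts (median -0.42), beside 20.6% and 22.7% of all genes. In calvarial-OB against fibroblasts, 7 were lower and 1, again Mbd3, higher (median -0.37), beside 27.4% and 28.4% of all genes. In the authors' deposited table for iOB GFP+ over fibroblasts, 3 of the 12 were higher and 6 lower, beside 23.7% and 21.7% of all genes. Chd3, a remodelling ATPase, averaged 241 ± 18 CPM in iOB, 207 ± 47 CPM in calvarial-OB and 428 ± 36 CPM in fibroblasts, and the deacetylase Hdac1 73.4 ± 1.5 CPM, 80.7 ± 1.1 CPM and 118 ± 6 CPM in the same groups.

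Among 9 genes of TET cofactors and partners, 2 were higher and none lower in iOB than in fibroblasts, beside 22.7% and 20.6% of all genes. Slc23a2, a vitamin C transporter, rose by 1.44 ± 0.10 to 151 ± 10 CPM in iOB, against 55.6 ± 3.2 CPM in fibroblasts (edgeR adjusted p = 5.32e-07). In calvarial-OB, Slc23a2 went the other way, with 39.8 ± 1.5 CPM, a fall of 0.48 ± 0.10 against fibroblasts (edgeR adjusted p = 0.00135). Idh1 and Idh2, which make alpha-ketoglutarate, rose in calvarial-OB by 0.59 ± 0.14 and 0.92 ± 0.13 against fibroblasts (edgeR adjusted p = 0.00363 and 9.22e-05).

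Of 14 base excision repair genes, 1 was higher and 3 lower in iOB, and 4 were higher and 4 lower in calvarial-OB, against fibroblasts. Over all genes tested, 43.3% and 55.8% were called in these comparisons, so the counts lie near or below that share. Apobec1, a cytidine deaminase that macrophages also express, averaged 52.7 ± 10.4 CPM in iOB and 71.7 ± 12.8 CPM in calvarial-OB, against 11.6 ± 1.7 CPM in fibroblasts, beside the macrophage markers given above. The repair sensor Parp1 fell by 0.62 ± 0.10 in iOB and by 0.33 ± 0.10 in calvarial-OB (edgeR adjusted p = 0.000381 and 0.0125). Of 15 genes of the methyl donor cycle, 1 (Ahcyl2) was higher and 6 lower in iOB, and 1 (Nnmt) was higher and 5 lower in calvarial-OB. Counted in either direction, these too lie near or below the 43.3% and 55.8% of all genes. By direction, 20.6% of all genes were lower and 22.7% higher in iOB, and 27.4% and 28.4% in calvarial-OB. The share of the 15 genes that was lower thus lay above that of all genes, more so in iOB. The share that was higher lay below that of all genes in both groups. Nnmt, which spends methyl groups on nicotinamide, averaged 2.99 ± 0.52 CPM in iOB, 17.2 ± 0.7 CPM in calvarial-OB and 9.43 ± 0.53 CPM in fibroblasts. Ahcyl1, a relative of the hydrolase of S-adenosylhomocysteine, fell in both osteoblast groups, by 0.75 ± 0.10 in iOB and 1.03 ± 0.10 in calvarial-OB (edgeR adjusted p = 8.33e-05 and 4.21e-06).

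**Figure D4:**
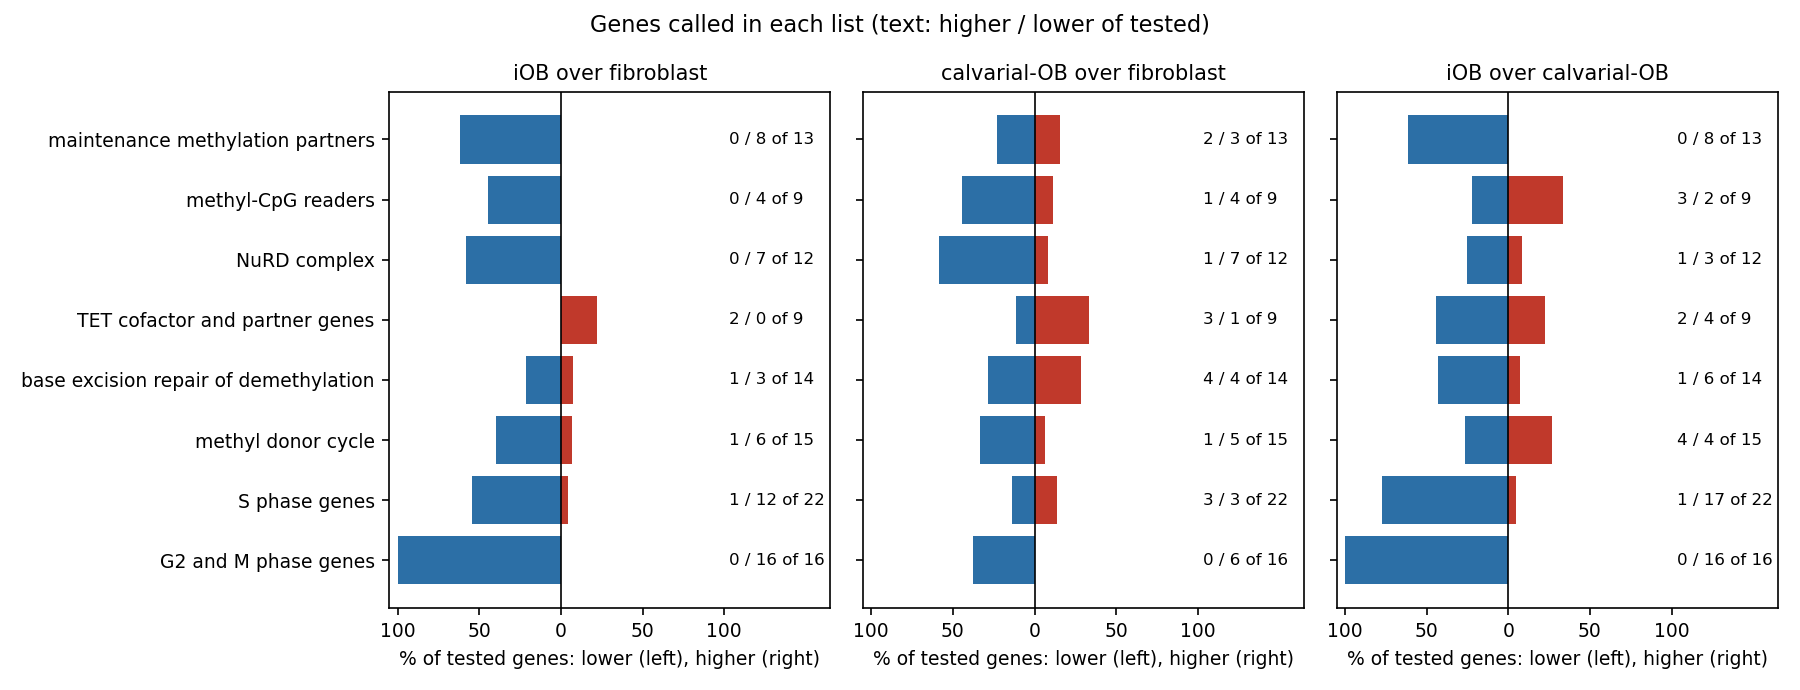
Percent of the tested genes of each list called lower (left of 0) and higher (right of 0) at an adjusted p below 0.05, with the counts printed, 1 panel per comparison. In iOB over fibroblast, 8 of 13 maintenance partners, 12 of 22 S phase genes and 16 of 16 G2 and M phase genes were lower, beside 20.6% of all genes tested. Lower too were 7 of 12 NuRD subunits, 4 of 9 methyl-CpG readers and 6 of 15 methyl donor genes. Of the base excision repair genes 3 of 14 were lower, and of the 9 TET cofactor and partner genes none.

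Over the 9 libraries, the genes whose log2 CPM ran most like that of a member among 12202 genes with a mean log2 CPM of at least 1 were found by Pearson's r, given with no p since the libraries fall into 3 groups. Uhrf1 was most like Thumpd1 (0.990), Hn1l (0.982) and 2700094K13Rik (0.981), and Dnmt1 most like Cdca8 (0.979), Rpl8 (0.978) and Ncaph (0.976). Cdca8 and Ncaph serve chromosome segregation and condensation in mitosis, while Rpl8 encodes a ribosomal protein. An r above 0.9 was reached by 285 genes for Uhrf1, 259 for Dnmt1 and 665 for Dnmt3a, so the nearest 3 are few among many. Dnmt3a was most like Spry1 (0.983), H2-Ke6 (0.982) and Prrt2 (0.982), and Mbd2 most like Arf2 (0.988), Palm3 (0.981) and Mdh1 (0.980). Tet1 was most like Acvr1b (0.969), Sfrp2 (0.964) and Meis2 (0.959), and Tet3 most like Kdm4b (0.977), Dnmbp (0.972) and Plcb3 (0.965). For Tet2 and Dnmt3b, which passed the test in no comparison, the likeness was weaker, with Tnrc6c (0.906) nearest to Tet2 and Mri1 (0.923) nearest to Dnmt3b.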

How the data were processed

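The authors deposited whole-number counts per gene symbol for 9 RNA libraries; the counter, its gene models and its strand option are not given in the sources used here. Among tools and builds, the submitters' processing notes list the build mm9 and STAR 2.4.2a, R 3.2.2, DESeq2 and Bowtie2. Poly-A RNA was used, per the labels' protocols. For iOB and iOB GFP+ over fibroblast, result tables were deposited that, per the file headers, give per gene the base mean (the signal after normalization, as a mean of libraries), the log2 fold change, its SE, the test statistic (a score), the p-value and its adjusted form. For iOB, base means matched the counts (median ratio 1), and a DESeq2 refit with a prior differed from the deposited log2 values by a median of 0.000338, so these are moderated towards 0. The methylation score windows are on mm9 and name no gene; with no annotation of that build they were not analysed here.

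All 9 libraries were fitted together in R 4.3.3 with edgeR 4.0.16 (glmQLFit, glmQLFTest; TMM, filterByExpr, group as the only term; limma 3.58.1); p-values were adjusted by Benjamini-Hochberg over 13438 genes and called below 0.05. The biological coefficient of variation was 14.8%. The SE is the log2 fold change over the root of the F statistic, and 95% intervals use its degrees of freedom. The fit was tested on simulated data. CPM are on TMM-scaled sizes; without transcript lengths, levels of different genes were not compared. Ratios used exact permutation tests (scipy 1.17.1, Python 3.11.15, numpy 2.4.6, pandas 2.3.3, matplotlib 3.10.9), and correlations log2 CPM with a prior count of 2. Named were all members, up to 4 genes per pathway list and comparison with the smallest adjusted p, of which the text describes a part and some are not reported here, and the 3 genes most like each member. Members and lists were chosen with earlier results of these data known. Alternatives were DESeq2 1.42.0, other scalings and filters, only the groups compared, each replicate left out, and the replicate number as a block. Equal numbers showed no sign of pairing libraries here and the block is not part of the reported fit.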

Additional observations from a re-analysis of the deposited data

How the results depend on the processing

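Of 24 pairs of member and comparison, 12 were called, and 11 of these kept direction and call in all 15 alternatives. The exception was Tet3 in calvarial-OB over fibroblasts, where the number of members called lower ranged over 0 to 1 with 1 replicate left out and the log2 fold change over -0.75 to -0.34. Of the 12 uncalled pairs, 7 changed sign in an alternative. In the fit of only the 2 groups compared, Dnmt3b in iOB over fibroblasts was at 0.00041. With 1 replicate left out, Dnmt3b ranged over -0.37 to 0.34 and Tet2 over -0.058 to 0.22 in iOB over fibroblasts. In calvarial-OB over fibroblasts, Dnmt1 ranged over -0.031 to 0.11, Tet2 over -0.32 to 0.067 and Uhrf1 over -0.010 to 0.35. In iOB over calvarial-OB, Dnmt3a ranged over -0.26 to 0.018 and Tet3 over -0.26 to 0.15. The difference in the log2 ratio of Uhrf1 to Dnmt1 ranged over -0.074 to 0.29 in calvarial-OB over fibroblasts, and that of Dnmt1 to the S phase list over -0.18 to 0.091 there and over -0.0053 to 0.26 in iOB over calvarial-OB. The cause of these moves was not tested. Equal numbers showed no sign of pairing libraries of different groups. As deviations from the group mean, log2 CPM of same-numbered libraries correlated at -0.15 to 0.15 and of differently numbered ones at -0.20 to 0.15. With the replicate block, 5614, 7364 and 6303 genes were called in iOB over fibroblasts, calvarial-OB over fibroblasts and iOB over calvarial-OB, against 5820, 7494 and 6561 without it, and no call of a member changed. Counts of 14 to 63 limit what can be said of Dnmt3b. Tdg and the methylation windows were not tested.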
